A study of Mus musculus with 30 samples.

Results

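Fatty acid elongases and desaturases were followed through cold exposure in inguinal white fat (iWAT) and in BAT, the heat-producing brown adipose depot. The set holds 10 genes of the 21652 in the deposited tables: the elongases Elovl1, Elovl3, Elovl4, Elovl5, Elovl6 and Elovl7, the front-end desaturases Fads1 and Fads2, and the stearoyl-CoA desaturases Scd1 and Scd2. They were chosen by symbol and all 10 were found. Bulk polyA RNA-seq was done on male C57BL/6J mice of 7 to 8 weeks, kept 5 to a cage with free food and water. No genotype other than the strain is given. Each tissue had 3 groups of 5 libraries: 22 °C, 6 h at 6 °C and 24 h at 6 °C. The control label reads 22 °C while the housing notes give 24 ± 2 °C. No label states that replicates came from different mice, so p-values cover the spread between samples only, which may be technical.

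Elongases add carbon pairs to acyl-CoA in the endoplasmic reticulum by condensing it with malonyl-CoA, and each elongase sets which chain lengths enter the cycle. Desaturases put double bonds into the chain: Scd enzymes make monounsaturated fatty acids from palmitate and stearate, while Fads1 and Fads2 work together with Elovl5 on polyunsaturated chains. In fat, Elovl6 lengthens newly made palmitate, and Elovl3 is a well known cold-responsive gene of brown fat.

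The 30 libraries held 25.3 to 40.99 M assigned counts (M, 1e6). Adipocyte markers (Adipoq, Plin1 and 6 others) had a median of at least 1 CPM (counts per 1e6, scaled by TMM factors) in every group. In iWAT their sum was 20575 to 26554 CPM at 22 °C, 26575 to 33050 after 6 h and 24358 to 29492 after 24 h, with no overlap between 22 °C and 6 h. The median sum of 8 adipose progenitor markers there went from 1943 to 1075 and 1139 CPM, and that of 8 macrophage markers from 678 to 342 and 445, at 22 °C, 6 h and 24 h. In BAT the adipocyte markers summed to 16961 to 17299 CPM at 22 °C, 16294 to 18906 after 6 h and 18758 to 22292 after 24 h. The 8 brown adipocyte markers (Ucp1, Cidea, Zic1 and others) summed higher in every cold BAT library than at 22 °C. Their BAT sums were 13147 to 16654, 19286 to 26783 and 18541 to 21518 CPM at 22 °C, 6 h and 24 h. In iWAT they summed to 147 to 1284 CPM at 22 °C, 785 to 5957 after 6 h and 3095 to 5143 after 24 h, and Zic1 was at 0 in every 24 h library. Ucp1 alone averaged 270, 2236 and 3006 CPM in iWAT at 22 °C, 6 h and 24 h, and 11858, 16917.5 and 14391 in BAT. Ucp1 is thus a large part of these sums, and its own mean was higher in the cold. The 10 skeletal muscle markers summed to 3493 CPM in replicate 2 of iWAT at 22 °C and under 10 CPM in the other iWAT libraries. In BAT they summed to between 2.19 and 8452 CPM, with medians of 1976, 365 and 784 at 22 °C, 6 h and 24 h. The part of all these markers in the results was not tested. In bulk RNA, fewer cells of a type and less RNA per cell cannot be told apart.

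Scd1 had the highest level per gene length in all 6 groups. Its enzyme introduces the first double bond into saturated fatty acids, and its deposited FPKM (fragments per kilobase of gene and 1e6 assigned counts) had a median of 6900.1 in iWAT and 5305 in BAT at 22 °C. Its counts were 3.40 ± 0.647% of all assigned counts in iWAT and 2.49 ± 0.229% in BAT at 22 °C (mean ± SD, n = 5). FPKM and count shares carry no TMM factor, and these factors were 1.19 to 1.38 in iWAT and 0.847 to 0.877 in BAT at 22 °C. In TMM-scaled CPM the order of the tissues was the other way, with Scd1 medians of 25206 in iWAT and 30091 in BAT. In iWAT at 22 °C the order of median FPKM after Scd1 was Scd2 (41.6), Elovl6 (40.1), Elovl5 (38.8), Elovl1 (10.2), Fads1 (10.04), Fads2 (3.35), Elovl3 (1.46), Elovl7 (0.269) and Elovl4 (0.0415). The ranges of Scd2, Elovl6 and Elovl5 overlapped there, as did those of Elovl1 and Fads1, of Fads2 and Elovl3, and of Elovl3 and Elovl7. In BAT at 22 °C the order was Elovl6 (244), Elovl3 (102), Elovl5 (41.2), Scd2 (30.2), Elovl1 (3.65), Fads2 (2.39), Fads1 (2.11), Elovl4 (0.182) and Elovl7 (0.0790). Neighbours there overlapped for Elovl5 and Scd2, Fads2 and Fads1, and Elovl4 and Elovl7. After 24 h at 6 °C, Elovl3 (442) stood above Elovl6 (238) in BAT with no overlap of their ranges.

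**Figure D1:**
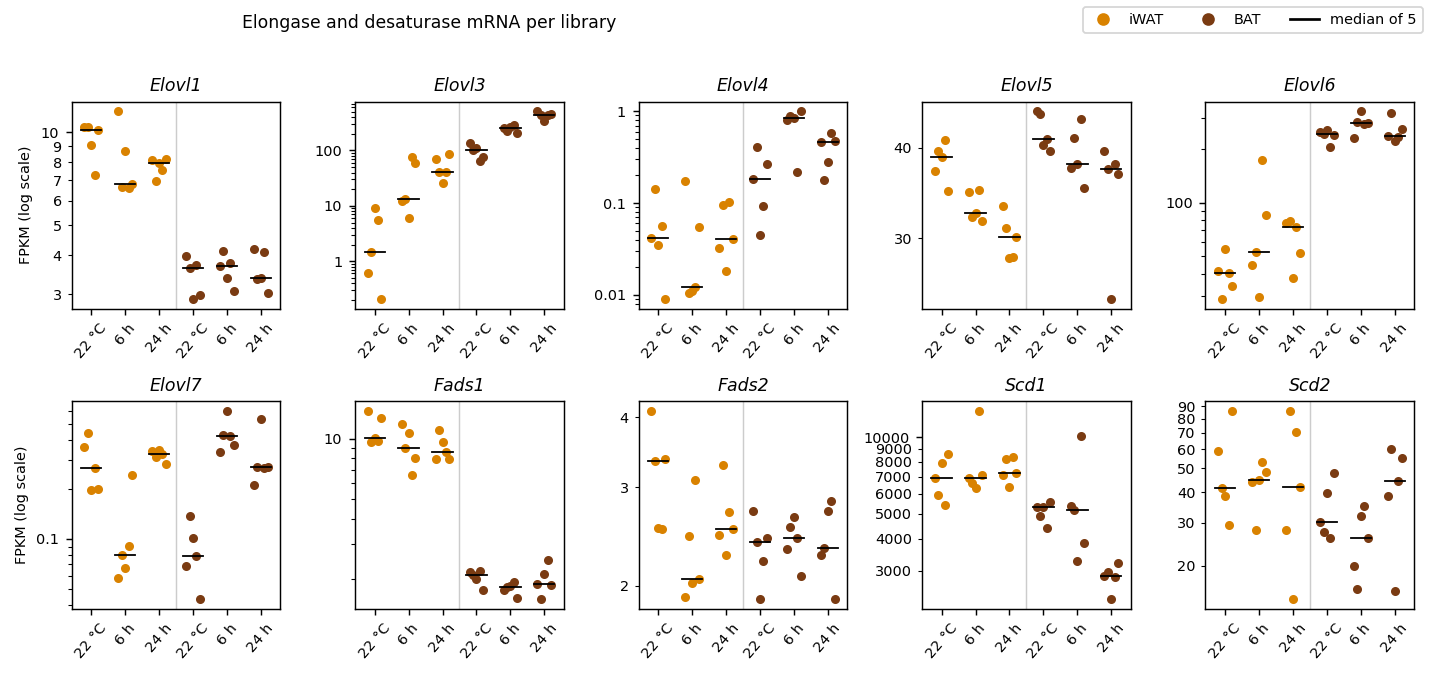
FPKM of each of the 10 genes (log scale, a scale of its own per gene) in each library by tissue and condition; points are libraries and bars are medians of 5. Elovl3 climbs from 0.205 in the lowest iWAT library to 517 in the highest BAT library, while Fads1 is between 1.60 and 2.50 in all BAT libraries.

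Elovl3 (ENSMUSG00000038754), which makes saturated and monounsaturated very long chains, rose at both times in both tissues. In iWAT its FPKM was 0.624, 1.46, 9.14, 5.58 and 0.205 at 22 °C (replicates 1 to 5, as in every such series below). After 6 h it was 12.0, 13.5, 6.08, 75.4 and 60.0, and after 24 h 70.3, 40.2, 26.1, 40.3 and 85.0. Replicate 3 at 6 h lay within the 22 °C range, and the 24 h libraries lay wholly above it. The log2 fold change was 3.53 ± 0.86 at 6 h (± approximate SE; adjusted p = 0.012 in edgeR's quasi-likelihood test) and 4.08 ± 0.88 at 24 h (adjusted p = 0.0047). Between 6 h and 24 h in iWAT it was 0.54 ± 0.77 and not called. The same libraries were high in brown adipocyte markers: summed CPM was 1065 and 1284 in replicates 3 and 4 at 22 °C against 147 to 374 in the others, and 5553 and 5957 in replicates 4 and 5 at 6 h against 785 to 2516. Ucp1 was a large part of these sums, as given above. The part of these markers in the rise was not tested.

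In BAT, Elovl3 was higher and its libraries were closer together. FPKM was 136, 102, 109.7, 65.1 and 75.4 at 22 °C, 256, 224, 270.0, 285 and 206 after 6 h, and 517, 442, 342, 432 and 462 after 24 h. The 3 groups did not overlap. In edgeR's quasi-likelihood test the log2 fold change was 1.38 ± 0.18 at 6 h (adjusted p = 4.2e-05), 2.17 ± 0.18 at 24 h (adjusted p = 9.7e-07) and 0.78 ± 0.17 from 6 h to 24 h (adjusted p = 0.0075). Fitted with all 30 libraries, the 6 h rise and the 6 h to 24 h rise were not called (adjusted p = 0.11 and 0.45). The response in BAT minus that in iWAT was -2.16 ± 0.88 at 6 h (adjusted p = 0.12) and -1.91 ± 0.88 at 24 h (adjusted p = 0.18), so a difference between the tissues was not shown. Without iWAT 22 °C replicate 3 the 6 h difference was -2.95 (adjusted p = 0.037).

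Elovl6 (ENSMUSG00000041220), which lengthens palmitate to stearate, rose in iWAT at 6 h. FPKM was 41.3, 28.7, 55.2, 40.1 and 34.0 at 22 °C, 45.0, 52.6, 29.5, 175 and 85.2 after 6 h, and 77.4, 79.5, 37.9, 72.8 and 52.5 after 24 h. Replicates 4 and 5 at 6 h stood highest, as they did in brown adipocyte markers (5553 and 5957 CPM against 785 to 2516 in the others), and both cold groups overlapped the controls. The part of these markers in the rise of Elovl6 was not tested. Its log2 fold change was 1.22 ± 0.39 at 6 h (adjusted p = 0.036, edgeR's quasi-likelihood test) and 0.84 ± 0.39 at 24 h (adjusted p = 0.13). The 24 h rise was called with only the groups compared (adjusted p = 0.020) and with all 30 libraries fitted (adjusted p = 0.039). Without 6 h replicate 4 the 6 h value was 0.63 (adjusted p = 0.13). The call was also lost without 6 h replicate 5 or without 22 °C replicate 1, 2 or 5 (adjusted p = 0.068 to 0.13 over these 5 fits). A replicate block (0.97, adjusted p = 0.088), a fit of only the groups compared (adjusted p = 0.061) and log2 FPKM (0.70 and 0.71 with pseudocounts of 1 and 0.1, adjusted p = 0.14 and 0.13) lost it too. In BAT, Elovl6 was 249, 244, 257, 205 and 240.4 FPKM at 22 °C, 232, 285, 328, 278 and 279 after 6 h, and 238, 321, 223, 233 and 259 after 24 h. These FPKM ranges overlapped. In TMM-scaled CPM, the scale of the test, the 6 h libraries (1979 to 2448) lay wholly above those at 22 °C (1501 to 1910). The log2 fold change was 0.26 ± 0.10 at 6 h (adjusted p = 0.072) and 0.09 ± 0.10 at 24 h (adjusted p = 0.55) in edgeR's quasi-likelihood test. The 6 h value was called by DESeq2 (adjusted p = 0.043) and with only the groups compared (adjusted p = 0.036).

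The make-up of elongase mRNA differed between conditions. Summed FPKM of the 6 elongases was 383 ± 46.7, 573 ± 51.1 and 733 ± 87.0 in BAT at 22 °C, 6 h and 24 h (mean ± SD, n = 5), and 91.4 ± 13.3, 152 ± 87.8 and 155 ± 34.1 in iWAT. Elovl3 made up 25.1 ± 4.45%, 43.3 ± 3.96% and 59.8 ± 3.66% of that sum in BAT. In iWAT its share was 3.36 ± 3.48%, 18.2 ± 10.5% and 32.7 ± 9.89%. Elovl6 took 62.8 ± 3.68%, 49.0 ± 4.12% and 34.8 ± 3.95% in BAT, and 43.2%, 47.6% and 41.5% in iWAT.

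The ratio of Elovl3 to Elovl6 FPKM within a library does not depend on scaling between libraries. Its median in BAT was 0.417 (0.314 to 0.548) at 22 °C, 0.823 (0.740 to 1.10) at 6 h and 1.78 (1.38 to 2.17) at 24 h. In iWAT it was 0.0510 (0.00602 to 0.166), 0.267 (0.206 to 0.704) and 0.690 (0.505 to 1.62). The groups were apart in both tissues at both cold times against 22 °C, and in BAT between 6 h and 24 h. Each of these 5 differences had an exact two-sided permutation p = 0.0079, the smallest that 5 against 5 libraries allows, and adjusted p = 0.033 over the 42 tests of 6 ratios in 7 comparisons. In log2 they were 1.16, 2.12 and 0.96 in BAT (6 h, 24 h, and 24 h against 6 h) and 3.06 and 4.27 in iWAT.

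**Figure D2:**
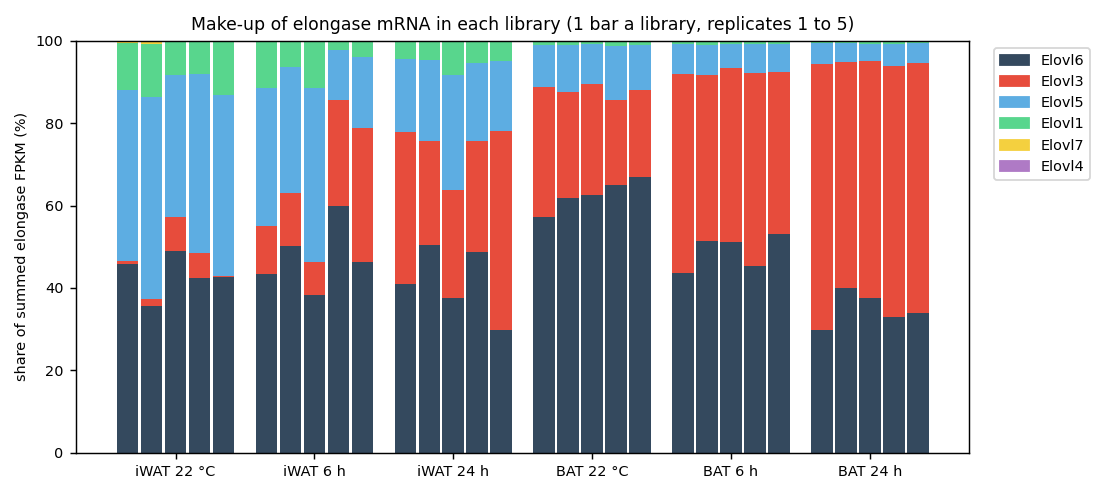
Share of summed elongase FPKM (%) taken by each of the 6 elongases, with 1 bar per library in the order of replicates 1 to 5. The mean share of Elovl3 goes from 25.1% to 59.8% in BAT and from 3.36% to 32.7% in iWAT between 22 °C and 24 h.

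Elovl7 (ENSMUSG00000021696), an elongase that prefers saturated chains of about stearate length, was scarce, and at 6 h it rose in BAT and fell in iWAT. Its counts were 7 to 58 in iWAT libraries and 6 to 81 in BAT libraries. At 22 °C in BAT they were 6 to 15, and it passed the count filter there through the cold libraries. In BAT, FPKM was 0.0686, 0.138, 0.102, 0.0790 and 0.0432 at 22 °C, 0.338, 0.430, 0.600, 0.422 and 0.371 after 6 h, and 0.214, 0.272, 0.533, 0.269 and 0.274 after 24 h. All cold BAT libraries stood above all 22 °C ones. The log2 fold change was 2.36 ± 0.32 at 6 h (adjusted p = 7.4e-05) and 1.85 ± 0.32 at 24 h (adjusted p = 0.00055), both in edgeR's quasi-likelihood test. In iWAT, FPKM was 0.363, 0.441, 0.198, 0.269 and 0.202 at 22 °C, 0.0580, 0.0794, 0.0663, 0.0911 and 0.246 after 6 h, and 0.341, 0.316, 0.345, 0.326 and 0.286 after 24 h. At 6 h, 4 libraries lay under the 22 °C range and replicate 5 lay within it.

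The 6 h fall of Elovl7 in iWAT was -1.17 ± 0.38 in log2 (adjusted p = 0.035, edgeR's quasi-likelihood test). The call was lost without 22 °C replicate 1 or 2 or without any of 6 h replicates 1 to 4 (adjusted p = 0.060 to 0.093), with a replicate block (adjusted p = 0.051) and with only the groups compared (adjusted p = 0.073). The value was -1.74 without 6 h replicate 5. At 24 h it was 0.30 ± 0.35 against 22 °C (adjusted p = 0.57), and 1.48 ± 0.38 against 6 h (adjusted p = 0.20) with no overlap between the 6 h and 24 h libraries. DESeq2 (adjusted p = 0.022) and a fit of all 30 libraries (adjusted p = 0.049) called the latter. The response in BAT minus that in iWAT was 3.53 ± 0.49 at 6 h (adjusted p = 6.4e-05) and 1.55 ± 0.48 at 24 h (adjusted p = 0.042) in edgeR's quasi-likelihood test. The 24 h difference was not called without any 1 of 13 of the 20 libraries (adjusted p = 0.053 to 0.099): iWAT 22 °C replicates 1 and 2, all 5 of iWAT 24 h, BAT 22 °C replicates 1, 3, 4 and 5, and BAT 24 h replicates 3 and 4. It was not called with no filter (adjusted p = 0.056), with a replicate block (adjusted p = 0.053) or on log2 FPKM with a pseudocount of 1 (adjusted p = 0.057).

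Elovl4 (ENSMUSG00000032262), which makes the longest chains known in mammals, rose in BAT at 6 h. FPKM was 0.182, 0.404, 0.0450, 0.0931 and 0.267 at 22 °C, 0.798, 0.885, 0.854, 0.219 and 1.01 after 6 h, and 0.458, 0.180, 0.280, 0.574 and 0.471 after 24 h. Replicate 4 at 6 h lay within the 22 °C range and the other 4 lay above it. With 5 to 31 counts in BAT at 22 °C, Elovl4 passed the count filter there through the cold libraries. In edgeR's quasi-likelihood test the log2 fold change was 1.97 ± 0.50 at 6 h (adjusted p = 0.0089) and 1.00 ± 0.50 at 24 h (adjusted p = 0.16). Between 6 h and 24 h it was -0.97 ± 0.47 (adjusted p = 0.18). In iWAT it had 1 to 16 counts a library, which was below the filter, and it was not tested there.

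Because Elovl4 and Elovl7 were the scarce elongases called in BAT at 6 h, their promoters are shown with that of the abundant Elovl6, which was not called there. RefSeq entries (build GRCm38.p6) were found for 6 of the 10 genes. The 250 bases before the start site are written 5′ to 3′ on the gene's strand, with matches to the GC box GGGCGG on either strand in capitals. Elovl4 lies on the minus strand at chr9:83806306-83806555, Elovl7 on the plus strand at chr13:108214154-108214403, and Elovl6 on the plus strand at chr3:129532136-129532385.
Elovl4: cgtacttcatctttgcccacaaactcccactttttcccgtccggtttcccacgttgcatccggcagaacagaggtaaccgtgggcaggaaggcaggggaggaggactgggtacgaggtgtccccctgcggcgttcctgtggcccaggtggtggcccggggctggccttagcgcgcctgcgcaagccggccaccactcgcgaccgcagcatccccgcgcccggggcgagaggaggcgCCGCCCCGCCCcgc
Elovl7: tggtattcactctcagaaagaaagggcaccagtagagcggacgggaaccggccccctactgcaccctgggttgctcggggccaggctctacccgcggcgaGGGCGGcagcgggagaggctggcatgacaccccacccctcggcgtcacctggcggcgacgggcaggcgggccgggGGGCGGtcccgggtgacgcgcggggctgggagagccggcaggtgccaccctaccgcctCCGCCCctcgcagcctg
Elovl6: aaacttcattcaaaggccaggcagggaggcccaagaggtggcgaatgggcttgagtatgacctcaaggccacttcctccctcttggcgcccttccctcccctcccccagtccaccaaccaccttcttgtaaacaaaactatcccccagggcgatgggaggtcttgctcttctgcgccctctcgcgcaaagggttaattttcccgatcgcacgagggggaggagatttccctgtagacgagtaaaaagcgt
The Elovl4 window holds 2 GC boxes, which share bases, the Elovl7 window 3 and the Elovl6 window 0. Of the other members with an entry, none called in BAT at 6 h, Elovl1 has 5 and 2 in its 2 windows, Fads2 has 1 and Elovl5 has 0, so GC boxes were found in members with and without a call. A GC box occurs in 32.7% of 32851 promoter windows of that length. Other letters searched on both strands were CACGTG (E-box, 6.02% of windows), CCAAT (33.8%) and DR1, a repeat of AGGTCA with 1 base between its copies (0.0335%). None of these was in the 3 windows. The Elovl5 window holds 1 E-box and 2 CCAAT boxes, and 1 Elovl1 window holds a CCAAT box. These matches describe letters, not binding.

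Elovl5 (ENSMUSG00000032349), the elongase of polyunsaturated chains, was called at no cold time in the main test (edgeR's quasi-likelihood test, TMM factors, no replicate block). In iWAT its FPKM was 37.2, 39.6, 38.8, 41.1 and 34.9 at 22 °C, 34.8, 32.1, 32.6, 35.0 and 31.7 after 6 h, and 33.2, 31.0, 28.2, 28.2 and 30.2 after 24 h. The 24 h libraries lay wholly below those at 22 °C in FPKM, and overlapped them in TMM-scaled CPM, in which the test was run. These FPKM declined while the TMM-scaled log2 fold change was 0.03 ± 0.09 at 6 h (adjusted p = 0.83) and -0.19 ± 0.09 at 24 h (adjusted p = 0.14, edgeR's quasi-likelihood test). In BAT it ranged from 39.7 to 45.0 FPKM at 22 °C, 35.2 to 43.9 after 6 h and 24.7 to 39.6 after 24 h, and neither time was called (log2 -0.07 ± 0.11 and -0.26 ± 0.11). With a replicate block the 24 h value in BAT was called (-0.27, adjusted p = 0.043). On log2 FPKM in limma the iWAT values were called lower with either pseudocount, at -0.20 after 6 h (adjusted p = 0.028 and 0.032) and -0.34 after 24 h (adjusted p = 0.0028 and 0.0032). Upper-quartile factors also gave a call at 24 h (-0.25, adjusted p = 0.049). The median of all tested genes in iWAT was -0.03 at 6 h and -0.04 at 24 h with TMM factors. On FPKM with a pseudocount of 1 it was -0.15 at 6 h and -0.12 at 24 h.

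Elovl1 (ENSMUSG00000006390), a broadly expressed elongase of saturated very long chains, did not pass the test at either cold time. Its FPKM ranged from 7.27 to 10.4 in iWAT at 22 °C, from 6.63 to 11.7 after 6 h and from 6.97 to 8.22 after 24 h. In BAT the ranges were 2.89 to 3.99, 3.08 to 4.14 and 3.02 to 4.18. Its 4 log2 fold changes against 22 °C lay between -0.12 and 0.11, with approximate SE of 0.13 to 0.15.

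Scd1 (ENSMUSG00000037071) fell in BAT after 24 h but was not called after 6 h. FPKM in BAT was 5305, 4887, 5313, 4389 and 5587 at 22 °C, 5350.4, 5199, 3278, 10059 and 3861 after 6 h, and 2853, 2949, 2318, 2837 and 3204 after 24 h. Every 24 h library lay below every library of the other 2 groups, and at 6 h replicate 4 stood above and replicates 3 and 5 below the 22 °C range. In edgeR's quasi-likelihood test the log2 fold change was 0.17 ± 0.22 at 6 h (adjusted p = 0.64), -0.85 ± 0.22 at 24 h (adjusted p = 0.011) and -1.02 ± 0.22 from 6 h to 24 h (adjusted p = 0.0070). The last was -0.69 without 6 h replicate 4 and remained called. Its share of all counts in BAT was 2.49 ± 0.229% at 22 °C, 2.71 ± 1.31% at 6 h and 1.39 ± 0.158% at 24 h.

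In iWAT, Scd1 was 6900.1, 5916, 7889, 5425 and 8601 FPKM at 22 °C, 6938, 6614, 6302, 12676 and 7082 after 6 h, and 7076, 8238, 6348, 8320.1 and 7205 after 24 h. The groups overlapped and replicate 4 at 6 h stood apart above the rest. Log2 fold changes were 0.44 ± 0.22 (adjusted p = 0.15) and 0.26 ± 0.22 (adjusted p = 0.41) in edgeR's quasi-likelihood test. The 24 h response in BAT minus that in iWAT was -1.11 ± 0.33 (adjusted p = 0.035). It was not called without any 1 of 8 of the 20 libraries (adjusted p = 0.051 to 0.069): replicates 1 and 2 of iWAT at 22 °C, 2 and 4 of iWAT at 24 h, 3 and 5 of BAT at 22 °C, and 3 and 4 of BAT at 24 h. On log2 FPKM with a pseudocount of 0.1 its adjusted p was 0.064.

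Scd2 (ENSMUSG00000025203), a paralogue of Scd1, varied widely between libraries and was called in no comparison. FPKM ranged from 29.4 to 86.1, 28.03 to 53.1 and 14.6 to 86.1 in iWAT at 22 °C, 6 h and 24 h, and from 25.8 to 47.9, 16.0 to 35.1 and 15.7 to 60.0 in BAT. Its BAT log2 fold changes were -0.38 ± 0.29 at 6 h and 0.32 ± 0.29 at 24 h. The Scd genes are close paralogues that lie next to each other, and whether reads were shared among them is not stated.

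Fads1 (ENSMUSG00000010663) and Fads2 (ENSMUSG00000024665), the delta-5 and delta-6 steps of polyunsaturated fatty acid synthesis, did not pass the test at either cold time in either tissue. Fads1 ranged from 9.67 to 13.7, 6.59 to 11.8 and 7.88 to 11.0 FPKM in iWAT at 22 °C, 6 h and 24 h, and from 1.78 to 2.20, 1.62 to 1.93 and 1.60 to 2.50 in BAT. Fads2 ranged from 2.53 to 4.11, 1.91 to 3.10 and 2.27 to 3.29 in iWAT and from 1.89 to 2.72, 2.08 to 2.65 and 1.89 to 2.84 in BAT. Their 8 log2 fold changes against 22 °C lay between -0.22 and 0.08. On log2 FPKM in limma Fads2 was called lower in iWAT at 6 h (-0.33 and -0.44 with pseudocounts of 1 and 0.1, adjusted p = 0.041 and 0.040). The within-library ratio of Scd1 to Fads2 had a median of 2041 in BAT at 22 °C and 1259 after 24 h, with no overlap (log2 difference -0.89, exact two-sided permutation p = 0.0079, adjusted p = 0.033).

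**Figure D3:**
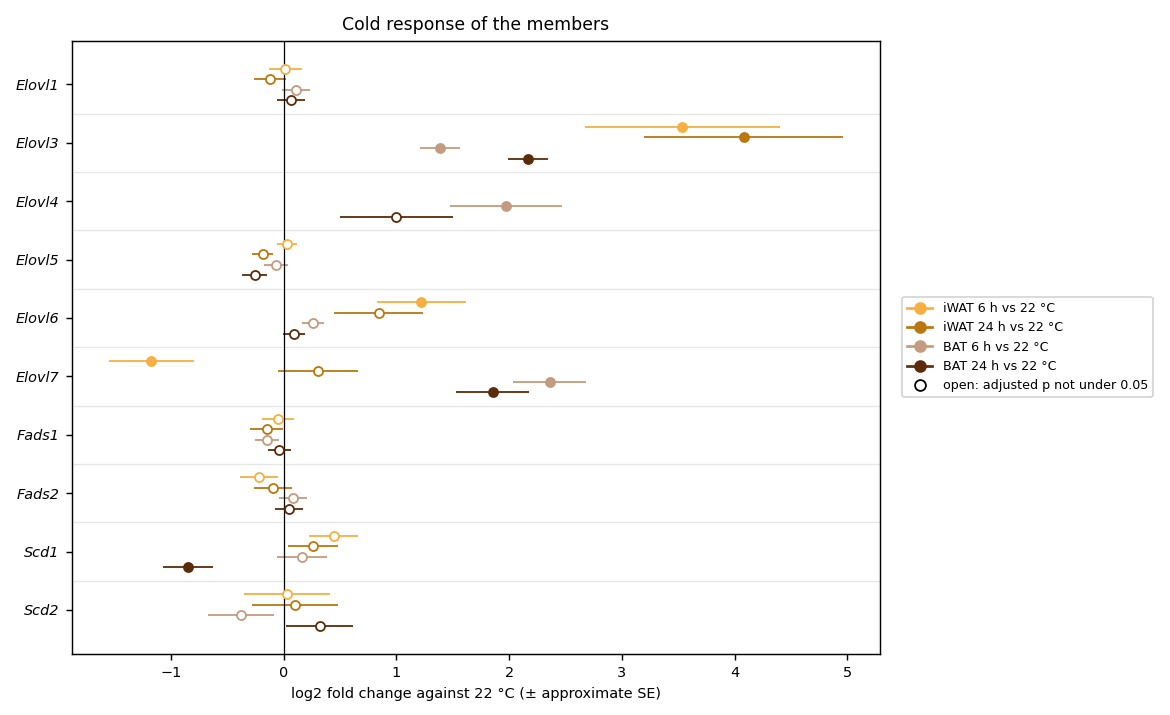
Log2 fold change of each gene against 22 °C (± approximate SE) at 6 h and 24 h in iWAT and BAT, with filled points called at an adjusted p under 0.05. Elovl3 is to the right of 0 in all 4 comparisons, Elovl7 lies at -1.17 in iWAT and 2.36 in BAT at 6 h, and Elovl4 was not tested in iWAT.

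By count, 3 of the 9 members tested were called in iWAT at 6 h (Elovl3 and Elovl6 higher, Elovl7 lower), against 23% of all 13689 genes tested. At 24 h 1 of 9 was called (Elovl3), against 23%. Between 6 h and 24 h in iWAT edgeR's quasi-likelihood test called 0 of 9 members, against 0.00731% of all genes. Elovl7 and Elovl5 there had an unadjusted p under 0.05, and DESeq2 called 1 member. In BAT 3 of 10 were called at 6 h (Elovl3, Elovl4 and Elovl7 higher), against 22.7% of 13090 genes. At 24 h 3 of 10 were called (Elovl3 and Elovl7 higher, Scd1 lower), against 23.1%. Between the cold times 2 of 10 were called (Elovl3 higher, Scd1 lower), against 13%. Elovl4 (5 to 31 counts) and Elovl7 (6 to 15) were scarce in BAT at 22 °C and passed the filter through the cold BAT libraries. Their calls, which are part of these BAT counts, therefore lend no independent support. These calls were kept with no filter. The members' median log2 fold change was 0.03 and 0.10 in iWAT at 6 h and 24 h (all genes -0.03 and -0.04), and 0.14 and 0.08 in BAT (all genes -0.01 and -0.01). The difference of response between tissues was called for 1 of 10 at 6 h and 2 of 10 at 24 h, against 9.4% and 7.81% of 14089 genes. The comparisons with 22 °C in a tissue share their control libraries.

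Between the tissues, members were called about as often as all genes, and all 10 had counts in both. At 22 °C 7 of 10 members were called between BAT and iWAT, against 66.9% of all genes: Elovl3 (log2 5.41 ± 0.74), Elovl6 (3.18 ± 0.33), Elovl4 (2.43 ± 0.68) and Elovl5 (0.74 ± 0.11) were higher in BAT, and Fads1 (-1.84 ± 0.13), Elovl7 (-1.17 ± 0.35) and Elovl1 (-0.85 ± 0.14) were lower. Their adjusted p in edgeR's quasi-likelihood test ran from 1.4e-12 for Fads1 to 0.0047 for Elovl7. Elovl6 and Elovl3 at 22 °C, and Fads1, Elovl1 and Elovl7 in the other direction, had no overlap in FPKM between the tissues. Elovl7 did overlap in TMM-scaled CPM (0.610 to 1.28 in iWAT, 0.204 to 0.639 in BAT). Elovl5 did overlap in FPKM (34.9 to 41.1 in iWAT, 39.7 to 45.0 in BAT), and on log2 FPKM its difference was 0.14 (adjusted p = 0.15 and 0.16 with pseudocounts of 1 and 0.1). Elovl4 was 0.17 on log2 FPKM with a pseudocount of 1 (adjusted p = 0.10). Elovl4 was below the filter in iWAT (1 to 16 counts a library) and entered the tests between tissues through its BAT counts. Its calls between the tissues, which are part of the member counts here and below, therefore lend no independent support. The median of all genes in this comparison was -0.04 with TMM factors and -0.34 on FPKM with a pseudocount of 1.

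After 6 h 8 of 10 members were called between the tissues, against 66.2%, and after 24 h 7 of 10, against 63.6%. Elovl7 was 2.36 ± 0.35 higher in BAT at 6 h (adjusted p = 1.1e-06, edgeR's quasi-likelihood test) and did not pass at 24 h (0.39 ± 0.33, adjusted p = 0.30). Scd1 did not differ by the test at 22 °C (0.16 ± 0.23) and was lower in BAT at 24 h (-0.95 ± 0.23, adjusted p = 0.00087). At 6 h it was called lower on log2 FPKM only (-0.57, adjusted p = 0.028 and 0.033 in limma). Fads2 was called at 6 h (0.45 ± 0.15, adjusted p = 0.011), but not with upper-quartile factors (0.32, adjusted p = 0.064) or on log2 FPKM (0.053 and 0.077). Its values at 22 °C and 24 h were 0.16 ± 0.15 and 0.30 ± 0.15. Elovl6 was 2.21 ± 0.32 and 2.43 ± 0.32 higher in BAT at 6 h and 24 h.

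**Figure D4:**
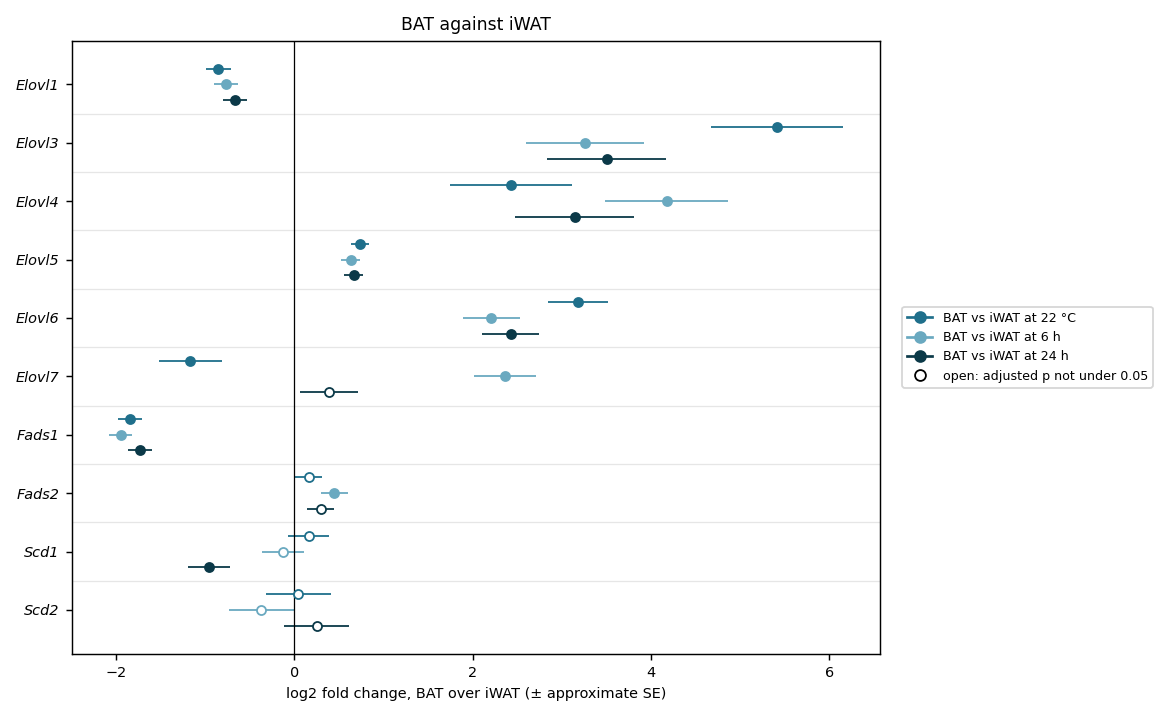
Log2 fold change of each gene in BAT over iWAT (± approximate SE) at 22 °C, 6 h and 24 h, with filled points called at an adjusted p under 0.05. Elovl3, Elovl4, Elovl5 and Elovl6 lie to the right and Elovl1 and Fads1 to the left at all 3 conditions, and Elovl7 goes from -1.17 to 2.36 between 22 °C and 6 h. Elovl4 was below the filter in iWAT and was tested here through its BAT counts.

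Ratios within libraries at 22 °C set the tissues apart as well. The median ratio of Elovl6 to Elovl5 was 0.977 in iWAT and 5.53 in BAT. Fads1 to Fads2 was 3.74 in iWAT and 0.880 in BAT, and Elovl5 to Elovl1 was 3.81 and 12.2. None of the 3 ratios overlapped between tissues (log2 differences 2.48, -2.0 and 1.60, each with an exact two-sided permutation p = 0.0079 and adjusted p = 0.033). Elovl3 to Elovl6 differed by 3.30 with the same p. In all, 10 of the 42 ratio tests passed.

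Some other enzymes of the elongation cycle rose in the cold. The cycle's remaining steps are a reduction by Hsd17b12, a dehydration by the Hacd enzymes and a second reduction by Tecr. In iWAT at 6 h 4 of 6 rose and 1 fell (median log2 0.58, all genes -0.03; 12.9% of all genes rose). Hacd2 rose by 0.93 ± 0.11 (adjusted p = 0.00037, edgeR's quasi-likelihood test), Hsd17b12 by 0.83 ± 0.18, Tecr by 0.60 ± 0.17 and Hacd1 by 0.56 ± 0.14, while Hacd4 fell by 1.42 on the log2 scale. In the same libraries the sum of adipocyte markers lay above its 22 °C range and progenitor and macrophage markers had lower medians, as given above, and their part was not tested. At 24 h in iWAT 3 of 6 rose (12.8% of all genes rose): Hsd17b12 (0.92 ± 0.18), Hacd2 (0.71 ± 0.11) and Hacd1 (0.61 ± 0.14). In BAT 3 of 6 rose at 6 h and 2 at 24 h (12.5% and 12.8% of all genes rose), with Hacd2 at 0.83 ± 0.08 and 1.04 ± 0.08 (adjusted p = 5.0e-06 and 4.8e-07) and Hsd17b12 at 0.21 ± 0.07 and 0.41 ± 0.07. On log2 FPKM 3 of the 6 were called in iWAT at 6 h, in either direction, with Hacd1 and Tecr lost. In iWAT at 24 h a fall of 1 gene was added under 6 of the 10 other settings and when control replicate 5 or 24 h replicate 4 was dropped. Without BAT 22 °C replicate 4 or 5 or 6 h replicate 5, 1 of 6 was called in BAT at 6 h. The difference of response between tissues did not pass the test for any of the 6. At 6 h Hsd17b12, Tecr, Hacd4 and Hacd1 had an unadjusted p under 0.05 there, and Hsd17b12 was nearest to a call (-0.63 ± 0.20, adjusted p = 0.0503).

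The genes that supply palmitate and malonyl-CoA did move differently in the tissues. They include Acly, which makes cytosolic acetyl-CoA from citrate, the citrate carrier Slc25a1, the acetyl-CoA carboxylases Acaca and Acacb, the fatty acid synthase Fasn and the lipogenic regulator Thrsp. In BAT 5 of 8 fell at 6 h (median log2 -0.56, all genes -0.01; 10.2% of all genes fell) and 7 of 8 at 24 h (median -0.85; 10.4% of all genes fell). Thrsp was -1.13 ± 0.16, Acly -1.16 ± 0.29, Fasn -0.72 ± 0.22 and Slc25a1 -0.71 ± 0.21 at 6 h. At 24 h Slc25a1 was -1.58 ± 0.22 (adjusted p = 6.6e-05, edgeR's quasi-likelihood test), Acaca -1.08 ± 0.16, Fasn -1.06 ± 0.22 and Acly -1.24 ± 0.29. Me1, which supplies NADPH, did not pass at 24 h (-0.42 ± 0.19).

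In iWAT the same 8 genes had a median of 0.66 at 6 h and 0.39 at 24 h, and Thrsp alone was called, at 6 h (1.10 ± 0.24, adjusted p = 0.0079, edgeR's quasi-likelihood test). The response in BAT minus that in iWAT was called lower for 5 of 8 at both times, with medians of -1.19 and -1.28 (all genes -0.02 and -0.01), while 6.03% and 4.85% of all genes were called lower. Thrsp was -2.24 ± 0.31 and Acly -2.03 ± 0.56 at 6 h, and Slc25a1 was -1.80 ± 0.39 at 24 h. Leaving out 1 library moved these counts. At 6 h, 3 of 8 were called without iWAT 22 °C replicate 2, 2 without iWAT 6 h replicate 4 and 3 without BAT 6 h replicate 5. At 24 h, 2 were called without iWAT 22 °C replicate 2 and 1 without iWAT 24 h replicate 2. In BAT alone at 6 h, 3 of 8 were called without 22 °C replicate 1 or 6 h replicate 5, and 2 with all 30 libraries in the fit. In iWAT at 6 h, 2 of 8 were called with DESeq2, with only the groups compared or without 22 °C replicate 4 or 6 h replicate 1 or 3, and 4 with all 30 libraries.

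**Figure D5:**
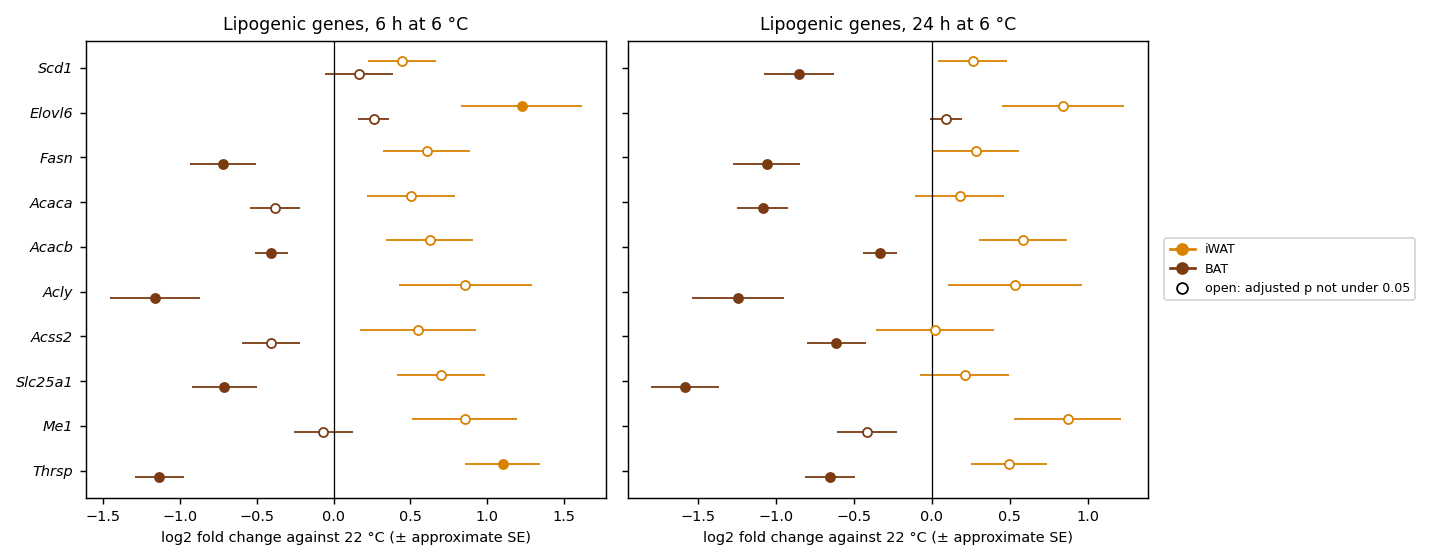
Log2 fold change against 22 °C (± approximate SE) of Scd1, Elovl6 and the 8 supply genes in iWAT and BAT at 6 h and 24 h, with filled points called at an adjusted p under 0.05. All 8 supply genes lie left of 0 in BAT and right of 0 in iWAT at both times, with 1 call in iWAT (Thrsp at 6 h).

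Further lists held scattered calls, beside 23% and 23% of all genes called in iWAT at 6 h and 24 h and 22.7% and 23.1% in BAT. Of the 7 other elongases and desaturases, 4 were tested in iWAT and 1 rose: Scd3, a paralogue of Scd1, at 1.97 ± 0.47 (6 h, adjusted p = 0.011) and 3.15 ± 0.46 (24 h, adjusted p = 0.00060) in edgeR's quasi-likelihood test. Scd3 had 3 to 10 counts at 22 °C, 6 to 31 at 6 h and 35 to 75 at 24 h per iWAT library. It passed the filter through the 24 h libraries, where it was high, so its calls lend no independent support. On log2 FPKM with a pseudocount of 1 its 6 h rise was not called. With only the groups compared it was not tested at 6 h. In BAT 5 were tested, and Degs1, the desaturase of ceramide synthesis, rose at 24 h (0.30 ± 0.07). Among the 6 electron donors of desaturases, Cyb5b (0.62 ± 0.13) and Cyb5a (0.52 ± 0.17) rose in iWAT at 6 h, Cyb5b (0.54 ± 0.13) and Cyb5r1 (0.50 ± 0.13) at 24 h, and Cyb5r1 (0.43 ± 0.07) in BAT at 24 h. The Cyb5a call was lost under 10 of 20 alternatives, left-out libraries included.

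Of 13 regulators of these genes 2 rose in iWAT at 6 h (Mlx and Nr1h3) and 4 at 24 h, while in BAT 3 rose and 4 fell at 6 h and 1 rose and 2 fell at 24 h. The 2 of 13 in iWAT at 6 h and the 3 of 13 in BAT at 24 h are no more than the share of all genes called (23% and 23.1%). In BAT at 6 h the sterol regulator Srebf1 was -0.67 and its retention factor Insig1 -0.68, and Srebf2 was 0.48 and Mlx 0.58. In iWAT at 24 h 2 regulators rose without 22 °C replicate 1, 2 or 5, and 1 rose and 3 fell on log2 FPKM. The iWAT 6 h count was 5 higher with all 30 libraries, and 2 rose and 2 fell on log2 FPKM. In BAT at 6 h 2 fell without 22 °C replicate 3 or with all 30 libraries.

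Of 8 genes of peroxisomal chain shortening, which trims very long chains, 3 rose in iWAT at 6 h, and 3 rose and 1 fell at 24 h. The 6 h count fell to 1 when replicate 1 or 2 of the controls, or replicate 2 or 5 of 6 h, was dropped, and 1 rose and 1 fell on log2 FPKM and with upper-quartile factors. DESeq2, or dropping control replicate 4 or 6 h replicate 3, gave 4 higher and 1 lower. At 24 h 5 rose without 22 °C replicate 4 or with all 30 libraries, and the fall, of Abcd2, was kept under 8 of 20 alternatives. In BAT 3 fell at 6 h, and 1 rose and 1 fell at 24 h, with the peroxisomal acyl-CoA importer Abcd2 at -1.37 and -1.50. At 24 h 3 rose with DESeq2, 2 rose and 2 fell on log2 FPKM, 2 rose without 24 h replicate 3, and 2 fell without 24 h replicate 1 or with a replicate block.

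Of 4 ceramide synthases tested, Cers6 fell in iWAT at 6 h (-0.82) and 24 h (-1.08), joined at 24 h by Cers4 (-0.47), and Cers5 fell in BAT at 24 h (-0.39). The Cers4 call was lost under 9 of 20 alternatives and the Cers5 call under 3. Of 9 genes of acyl transfer to phospholipids, 3 rose and 1 fell in iWAT at 6 h and 3 rose and 2 fell at 24 h. In BAT 1 rose at 6 h (Lclat1, 1.44) and 2 at 24 h. On log2 FPKM in iWAT at 6 h 1 rose and 3 fell with a pseudocount of 1, and 1 rose and 2 fell with 0.1. Without 6 h replicate 1, 3 rose and 2 fell. The falls at 24 h numbered 1 when control replicate 2 or 5, or replicate 1, 4 or 5 of 24 h, was dropped.

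Genes whose 6 group means most resembled those of the 4 most variable members were named by the root mean square difference of centred log2 CPM among 10476 genes. A small constant was added to CPM before the log. It flattens scarce members such as Elovl4 and Elovl7, so the choice of the 4 depends on it. Elovl4 averaged 0.130 to 0.153 CPM in the iWAT groups, where its means lie near that constant, so its difference between tissues is understated here. For Elovl3 they were Sgk2 (0.51), the fatty acid transporter Slc27a2 (0.56) and the uncoupling protein Ucp1 (0.59). For Elovl6 they were Pgap4 (0.11), Gpd2 (0.12) and Suclg1 (0.12), and for Elovl4 P4ha1 (0.11), Tbc1d9 (0.14) and Dnaja4 (0.16). For Fads1 they were Tmem119 (0.054), Fst (0.059) and Galns (0.066). These are descriptions over 6 means, and the libraries behind them are shared.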

How the data were processed

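The data were polyA RNA-seq of iWAT and BAT in 6 groups of 5 libraries. HISAT2, HTSeq and GRCm39 are named, without versions, in the submitters' processing notes, and strand use is not given in the sources used here. The deposited counts were whole reads per gene assigned by the authors, without scaling. The deposited FPKM equalled the count per kilobase of gene and per 1e6 counts assigned in that library, and were used for levels between genes and for ratios. Whole-number counts were tested with edgeR 4.0.16 in R 4.3.3 (filterByExpr with a minimum count of 10, TMM factors, quasi-likelihood F test), with Benjamini-Hochberg adjusted p under 0.05 called over all genes tested. Cold comparisons used the 15 libraries of a tissue, and comparisons between tissues used all 30. Each approximate SE is the size of the log2 fold change over the root of F. CPM used TMM-scaled library sizes.

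The 10 members, the partner lists and the marker lists were chosen with earlier results of these data known. Partner genes were named when called, at most 4 per list and comparison. Genes like a member were the 3 nearest for each of the 4 members with the widest range of group means, among genes of at least 5 CPM in a group. Of the partners, Cers1 is not analysed here. Elovl1, Elovl3, Elovl5, Elovl6, Elovl7, Fads1 and Scd2 each overlap another annotated gene, so reads of both may not be told apart.

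Each result was recomputed with DESeq2 1.42.0, with upper-quartile or RLE factors, without the filter or keeping genes of 1 CPM in 5 libraries, on log2 FPKM (pseudocount 1 or 0.1) in limma 3.58.1, with only the groups compared or all 30 libraries fitted, with a replicate block, and with each library left out. Running them on the partner genes was added after seeing the data. On simulated data, for iWAT at 6 h (13565 genes), 65% of changes of log2 1 and 97.0% of log2 2 were recovered with 4 false calls, and for BAT at 6 h (12968 genes) 79.8% and 88.9% with 6 false calls. Within groups, the 60 pairs of libraries differed by a chi-square of 14 or more per degree of freedom, so none was taken as a copy of another.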

Additional observations from a re-analysis of the deposited data

Results flagged for a closer look

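A library counted as standing apart in its group of 5 when the distance to its neighbour was over 0.71 of the group's range (Dixon's 95% limit). That held for 9 of 60 groups, and chance gives about 1 in 20. Values here are CPM.

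In iWAT at 6 h, Elovl1 was 30.5 in replicate 1 (others 16.7 to 19.6), Elovl4 was 0.507 in replicate 1 (others 0.0276 to 0.149), Elovl7 was 0.892 in replicate 5 (others 0.221 to 0.358), and Scd1 was 60754 in replicate 4 (others 25584 to 32358). In BAT at 6 h, Elovl4 was 0.803 in replicate 4 (others 3.00 to 3.60), Elovl7 was 2.79 in replicate 3 (others 1.76 to 2.05), and Fads2 was 8.10 in replicate 5 (others 9.69 to 10.2). In BAT at 22 °C, Elovl6 was 1501 in replicate 4 (others 1818 to 1910). In BAT at 24 h, Elovl7 was 2.50 in replicate 3 (others 1.05 to 1.30). In FPKM rather than CPM, replicate 4 of iWAT at 6 h had the highest value of its group for 6 of the 10 members. The share of all genes for which it stood highest was not computed.

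The response to cold differed between the tissues for 2 members by the test of the difference itself in edgeR's quasi-likelihood fit. Elovl7 rose in BAT and fell in iWAT at 6 h, a log2 difference of 3.53, and its difference at 24 h was 1.55. Scd1 differed by -1.11 at 24 h. Both 24 h differences were lost in the fits given above.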

How the results depend on the processing

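Over the 10 other settings, 949 of 1019 values of single members kept their direction and their side of the threshold, 18 lost it, 16 gained it and 36 changed sign. With 1 library left out these were 1191, 32, 6 and 41 of 1270. No value called in the main test changed sign. The cause was not tested. Counts of members called moved as follows. In iWAT at 6 h the 3 calls became 1 with a replicate block, 1 with only the groups compared, and 4 on both FPKM scales (Elovl6 lost, Elovl5 and Fads2 lower). In iWAT at 24 h the 1 call became 2 with upper-quartile factors, on both FPKM scales, with only the groups compared and with all 30 libraries. In iWAT 24 h against 6 h, 0 became 1 with DESeq2 and 1 with all 30 libraries. In BAT at 6 h 3 became 4 with DESeq2 and with only the groups compared (Elovl6 higher) and 2 with all 30 libraries (Elovl3 lost). In BAT at 24 h 3 became 4 with a replicate block (Elovl5 lower). In BAT 24 h against 6 h, 2 became 1 with all 30 libraries. The tissue difference at 6 h went from 1 to 2 on both FPKM scales (Elovl4 higher), and that at 24 h from 2 to 1 with no filter, with a replicate block and on both FPKM scales. On TMM CPM per kilobase, 6 of 10 places in the iWAT 22 °C order were kept.

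With each library left out, members called ranged from 1 to 3 (iWAT 6 h; 1 if replicate 1 or 2 of 22 °C, or replicate 4 of 6 h, was dropped), 1 to 1 (iWAT 24 h), 0 to 0 (iWAT 24 h against 6 h), 3 to 3 (BAT 6 h), 3 to 3 (BAT 24 h), 2 to 3 (BAT 24 h against 6 h), 7 to 7, 8 to 8 and 7 to 8 (BAT against iWAT), and 1 to 2 and 0 to 2 (tissue differences at 6 h and 24 h). Ratio tests passing ranged from 0 (without any 1 control library of iWAT, or control replicate 1, 2 or 4 of BAT) to 14 (without iWAT 6 h replicate 2, control replicate 3 or 5 of BAT, or replicate 3 of BAT at 6 h or 24 h). Dropping a library leaves 4 against 5, where the smallest exact two-sided permutation p is above the 0.0079 of 5 against 5. Tests can be lost through that limit alone, so these counts cannot show whether the ratios depend on single libraries.

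Of 45 same-number pairs, 20 had a correlation of deviations over 0.1 (-0.61 to 0.59) and 13 matched best with their own number. For iWAT and BAT at 24 h all 5 matched best with their own number (0.087 to 0.44, 4 over 0.1), a hint of pairing there from the data. With the replicate block the count called between the tissues at 24 h stayed at 7, and that of the 24 h tissue difference is given above. The block changed signs for Elovl1 (-0.010, iWAT 6 h) and Scd2 (-0.060, iWAT 24 h against 6 h).

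Signs also changed as follows, always from an uncalled value (upper quartile first where 3 are given, then log2 FPKM with pseudocounts of 1 and 0.1). In iWAT at 6 h: Elovl1 -0.055, -0.22 and -0.25, Elovl5 -0.042, -0.20 and -0.20, Scd2 -0.049, -0.15 and -0.15. Scd2 was -0.23 and -0.24 in iWAT at 24 h and -0.078 and -0.086 from 6 h to 24 h. In BAT against iWAT at 22 °C: Fads2 -0.029, -0.32 and -0.42, Scd1 -0.030, -0.43 and -0.43, Scd2 -0.14, -0.50 and -0.51. At 24 h: Elovl7 -0.016 and -0.079, Fads2 -0.10 and -0.14, Scd2 -0.049 and -0.047. For tissue differences at 6 h: Elovl5 0.094 and 0.096, Fads1 0.15 and 0.12, and at 24 h Elovl5 0.069 and 0.071.

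Leaving out libraries changed signs over these ranges. In iWAT at 6 h: Elovl1 -0.18 to 0.083, Elovl5 -0.015 to 0.11, Fads1 -0.18 to 0.030, Scd2 -0.082 to 0.30. In iWAT at 24 h: Fads2 -0.19 to 0.0075, Scd2 -0.22 to 0.37. In iWAT from 6 h to 24 h: Elovl1 -0.20 to 0.056, Elovl6 -0.60 to 0.22, Fads1 -0.19 to 0.025, Scd1 -0.28 to 0.092, Scd2 -0.24 to 0.31. In BAT: Scd1 -0.16 to 0.30 at 6 h, and at 24 h Elovl1 -0.00070 to 0.13, Elovl6 -0.017 to 0.14, Fads1 -0.12 to 0.024, Fads2 -0.026 to 0.13. From 6 h to 24 h in BAT: Elovl1 -0.11 to 0.021, Fads2 -0.10 to 0.043. Between tissues: Scd2 -0.12 to 0.31 at 22 °C, Scd1 -0.45 to 0.15 at 6 h. Tissue differences: Fads1 -0.19 to 0.0067 at 6 h, and at 24 h Elovl5 -0.14 to 0.036, Scd2 -0.062 to 0.53.

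Over all genes, calls went from 3148 to 4899 and 4783 on FPKM in iWAT at 6 h, from 1325 to 2606 and from 1100 to 1956 on FPKM for the tissue differences, and from 1 to 122 with DESeq2 in iWAT from 6 h to 24 h. Elovl4 and Elovl7 rest on few counts, which limits their precision.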
